A study of Mus musculus with 6 samples.

Results

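Estrogens are made from androgens, and androgens are inactivated or turned into stronger androgens, by a small set of enzymes, and 8 genes for such enzymes were examined by RNA-seq in primary mouse granulosa cells (GCs) treated with medium or with dihydrotestosterone (DHT). The genes were chosen by name: *Cyp19a1*, *Hsd17b1*, *Hsd17b4*, *Hsd17b11*, *Hsd17b12*, *Srd5a1*, *Srd5a3* and *Akr1c14*. Rows were found for 7 of the 8 among the 16300 genes of the table, and *Cyp19a1*, the aromatase, was not analysed here. The rule used names and no measured value, but the names were picked with earlier results of these data known.

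The GCs came from wild type C57BL/6J mice aged 8 to 9 weeks. They were isolated on the day of estrus, and each library was made from the pooled cells of several mice. The cells were cultured in medium with serum, starved of serum, and then kept in serum-free medium with or without 25 nM DHT for 24 h. There were 3 control and 3 DHT libraries, and both groups share strain, genotype, age and culture. The methods give the 3 libraries of a group as separate pools, so the p-values below measure the spread between pools, but they do not say whether a control and a DHT library shared one. The extraction note in the labels speaks of whole ovary, while the titles and the cell type say GCs. The 9 GC markers tested summed to between 198980 and 212885 normalized counts in control and between 179006 and 192760 in DHT libraries. *Gja1*, *Inha* and *Inhba* made up most of that sum, while *Fshr* and *Amh* were low, with control means of 150.1 and 130.3. The sum does not settle which material the extraction note describes, since the theca list also had a large sum, through *Aldh1a1*. Depth was inferred from the values: divided by their common step, the normalized counts of a library summed to between 36111177 and 41928585 reads on the genes of the table, as far as that step is the value of 1 read, which was not settled for every library.

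In the follicle, theca cells supply androgens and GCs turn them into estrogens. Aromatase makes estrone from androstenedione and estradiol from testosterone, and reductive 17β-hydroxysteroid dehydrogenases (17β-HSDs) turn weak keto steroids such as estrone into potent hydroxy steroids such as estradiol. Oxidative members of that family work the other way. The 5α-reductases turn testosterone into DHT, which cannot be aromatized, and aldo-keto reductases of the AKR1C family reduce DHT further to a weak androgen.

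Stretches upstream of the RefSeq gene start are shown here for 3 members that behaved differently below: *Akr1c14* and *Hsd17b12*, which were higher in DHT, and *Srd5a3*, which was not. They are the 250 bases before the RefSeq start of each gene in build GRCm38.p6, read 5′ to 3′ on the strand of the gene. Capitals mark the CCAAT box (CCAAT) and the GC box (GGGCGG), each searched on both strands. The *Akr1c14* stretch is chr13:4059341-4059590 on the plus strand, which lies inside the span that GENCODE gives the gene. The *Hsd17b12* stretch is chr2:94157910-94158159 on the minus strand, and the *Srd5a3* stretch is chr5:76140023-76140272 on the plus strand. Both of these run into the GENCODE span of their gene as well, the former by more bases than the latter.
Akr1c14: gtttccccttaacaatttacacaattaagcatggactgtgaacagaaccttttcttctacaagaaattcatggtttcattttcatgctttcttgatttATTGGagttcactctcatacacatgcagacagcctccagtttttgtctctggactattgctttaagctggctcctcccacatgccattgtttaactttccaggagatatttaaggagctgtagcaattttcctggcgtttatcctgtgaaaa
Hsd17b12: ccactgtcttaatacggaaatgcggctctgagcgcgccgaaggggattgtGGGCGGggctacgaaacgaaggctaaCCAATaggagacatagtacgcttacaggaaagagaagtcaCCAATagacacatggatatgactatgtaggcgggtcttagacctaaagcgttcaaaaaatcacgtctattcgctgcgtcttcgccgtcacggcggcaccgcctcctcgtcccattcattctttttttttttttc
Srd5a3: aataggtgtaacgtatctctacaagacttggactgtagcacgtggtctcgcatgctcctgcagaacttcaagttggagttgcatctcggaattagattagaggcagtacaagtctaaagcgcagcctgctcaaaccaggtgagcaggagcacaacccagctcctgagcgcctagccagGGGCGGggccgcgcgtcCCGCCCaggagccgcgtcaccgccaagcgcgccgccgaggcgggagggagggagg

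Such a stretch was searched for 5 members, the other pair being *Hsd17b11* and *Srd5a1*. The remaining members were not searched, so the counts below do not cover them. None of the 5 held the androgen response element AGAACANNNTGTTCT, which 3 of 32851 mouse promoters of the same length held, or the left arm of that element, AGAACA, which 16.08% held. None held the NR5A site AAGGTCA (4.08% of all promoters) or the cAMP response element TGACGTCA (1.55%). The CCAAT box stood in 4 of the 5, in all but *Srd5a3*, and in 33.85% of all promoters. The GC box stood in 4 of the 5, in all but *Akr1c14*, and in 32.74% of all promoters. The *Akr1c14* stretch was 38.8% G and C with 1 CpG, and the other 4 had between 13 and 20 CpGs, against a median of 52.4% and 6 CpGs over all promoters. These matches describe letters in a short window only.

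DHT went with higher transcript levels for 5 of the 7 members, and no member fell. *Hsd17b1*, *Akr1c14*, *Hsd17b12*, *Hsd17b11* and *Hsd17b4* rose, by 39.2%, 30.5%, 23.7%, 22.1% and 12.6% of their control means. *Srd5a1* was 19.6% higher but did not pass the test, and *Srd5a3* was the one member below its control mean, by -4.15%, with an unadjusted p of 0.26. A gene passed with a Benjamini-Hochberg adjusted p of at most 0.05 in limma, fitted to log2(value + 1) over all 16292 genes with a mean of at least 10 normalized counts. Over all those genes 6.52% were higher and 4.66% lower in DHT by the same rule. Among the 9902 genes at least as abundant as the lowest member, 8.53% were higher.

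All 7 members passed the filter on low values. The median log2 fold change of the 7 was 0.29, against -0.0052 over all genes tested. The changes were modest, and 0 of the 7 had an absolute log2 fold change above 1 beside an adjusted p of at most 0.05, a rule that 1.31% of all genes met. In 6 of the 7 the lowest DHT value exceeded the highest control value, as it did in 15.9% of all genes. The count of 5 depended on single libraries and on the model. It was 3, without *Hsd17b4* and *Hsd17b11*, when DHT replicate 2 or DHT replicate 3 was left out, and 1, *Hsd17b12* alone, when the spread of a gene was not modelled on its abundance. With every library scaled to the same total, 907 genes were higher and 1012 lower, against 1063 and 760 as deposited, and 4 members were higher.

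**Figure D1:**
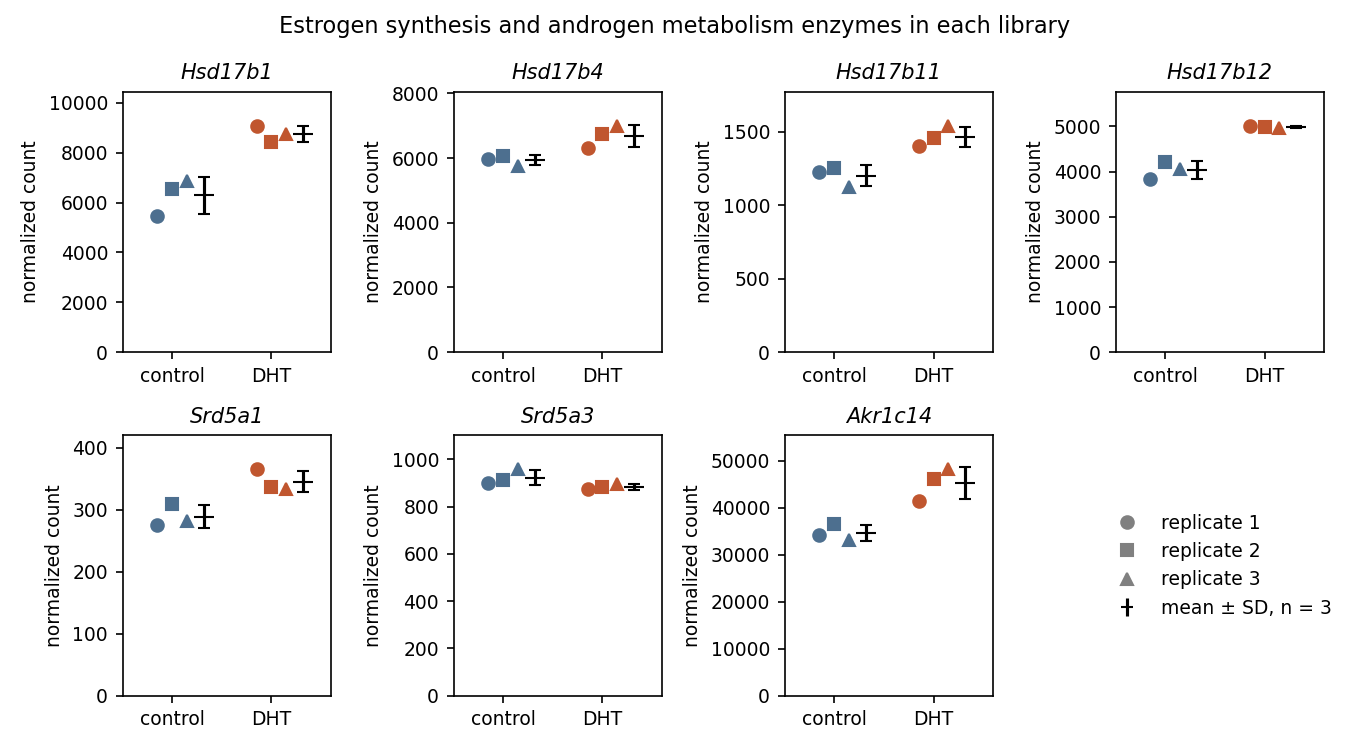
Normalized counts of the 7 members in each library, one panel per gene, with control and DHT libraries as points, the group mean as a bar and the SD as whiskers. The DHT points lie above the control points in every panel but that of *Srd5a3*, where all 3 lie below.

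*Hsd17b1* encodes the 17β-HSD of GCs that reduces estrone to estradiol. The gene (ENSMUSG00000019301) lies on the plus strand of chromosome 11 from 101078411 to 101080527 in GRCm38. Its normalized counts were 5459.7, 6540.3 and 6888 in control replicates 1 to 3 and 9079, 8453 and 8765 in DHT replicates 1 to 3. All DHT libraries stood above all control libraries, and control replicate 1 was the lowest. The means were 6296 ± 745 (SD, n = 3) and 8766 ± 313 (SD, n = 3). The difference, DHT minus control, was 0.48 log2 units (SE 0.077), at a limma adjusted p of 0.00442, the largest change among the members.

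*Hsd17b12* encodes an enzyme of the endoplasmic reticulum with 2 assigned reactions, reduction of estrone and a reduction step in the elongation of fatty acids. The gene (ENSMUSG00000027195) spans 94032689 to 94157964 on the minus strand of chromosome 2. Control libraries held 3837, 4212 and 4057 normalized counts, and DHT libraries 5011, 4989.7 and 4971. The DHT values were nearly equal to each other, with a mean of 4991 ± 20.0 (SD, n = 3) against 4035 ± 189 (SD, n = 3). The difference, DHT minus control, was 0.31 log2 units (SE 0.041), at a limma adjusted p of 0.00187. It was the member whose call held under all 15 alternatives, with adjusted p between 0.00165 and 0.0334.

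*Hsd17b4* encodes a peroxisomal enzyme that oxidises estradiol to estrone and takes part in the breakdown of fatty acids. Transcripts of *Hsd17b4* (ENSMUSG00000024507) stood at 5974, 6073 and 5761 normalized counts in control and at 6306, 6747 and 6995 in DHT libraries. The groups did not overlap, but DHT replicate 1 was close to the control values. The means were 5936 ± 159 (SD, n = 3) and 6683 ± 349 (SD, n = 3), and the difference was 0.17 log2 units (SE 0.045). The limma adjusted p was 0.0447, just inside the threshold, and *Hsd17b4* missed the threshold without DHT replicate 2 or 3 and without any single control replicate, with adjusted p up to 0.157 over all 15 alternatives.

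*Hsd17b11* encodes a lipid droplet enzyme that oxidises androgens such as androstanediol. The gene (ENSMUSG00000029311) spans 103989762 to 104021919 on the minus strand of chromosome 5. It was read at 1224, 1256 and 1123 normalized counts in control and at 1404, 1455 and 1539.9 in DHT libraries. The lowest DHT library stood above the highest control library. The means were 1201 ± 69.7 (SD, n = 3) and 1466 ± 68.5 (SD, n = 3). The difference, DHT minus control, was 0.29 log2 units (SE 0.058), at a limma adjusted p of 0.0138, which ranged from 0.0131 to 0.0724 over the alternatives. So the family members that rose included enzymes assigned to reduction (*Hsd17b1*, *Hsd17b12*) and to oxidation (*Hsd17b4*, *Hsd17b11*).

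*Srd5a1* encodes the type 1 5α-reductase, which forms DHT from testosterone. The gene (ENSMUSG00000021594) spans 69573449 to 69611442 on the minus strand of chromosome 13. Control libraries held 275, 309 and 282 normalized counts and DHT libraries 365, 337 and 334. The groups did not overlap. The log2 fold change was 0.26 with a 95% interval of 0.068 to 0.45, and the limma adjusted p was 0.0878 (0.0133 before adjustment), so the difference did not pass. In the annotation 13.58% of the 100-base windows of its exons also occur in *Gm17108*, which overlaps it on the same strand. This is a share of sequence, and how far it affects the count was not measured.

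*Srd5a3* encodes an enzyme of the same family whose main known reaction is the reduction of polyprenol to dolichol, the lipid carrier of protein glycosylation. The gene (ENSMUSG00000029233) spans 76140271 to 76155504 on the plus strand of chromosome 5. Its normalized counts were 898, 912 and 958 in control and 874, 883 and 897 in DHT libraries. Every DHT library was below every control library, by little. The log2 difference was -0.061 with a 95% interval of -0.17 to 0.053 and a limma adjusted p of 0.509. The interval leaves out a rise as large as that of any member that passed.

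*Akr1c14* encodes the rodent 3α-hydroxysteroid dehydrogenase that reduces DHT to androstanediol. The gene (ENSMUSG00000033715) spans 4049011 to 4090688 on the plus strand of chromosome 13. It held 34235, 36522 and 33235 normalized counts in control and 41466, 46039 and 48169 in DHT libraries. The groups were well apart, with means of 34664 ± 1685 (SD, n = 3) and 45225 ± 3425 (SD, n = 3). The difference, DHT minus control, was 0.38 log2 units (SE 0.062), at a limma adjusted p of 0.00494. Of its 100-base windows 4.3% also occur in *Gm18857*, which overlaps it on the same strand, while the other members apart from *Srd5a1* share none with another annotated gene.

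The enzyme that forms DHT and the one that reduces it were set against each other as the log2 ratio of *Srd5a1* to *Akr1c14* in each library. The ratio was -6.95, -6.88 and -6.88 in control and -6.82, -7.09 and -7.17 in DHT libraries. DHT replicate 1 was above all control libraries and the other DHT libraries below them. The means were -6.90 ± 0.044 and -7.03 ± 0.18 (SD, n = 3 each), a difference of -0.12 with a two-sided exact permutation p of 0.4. The smallest p that 3 against 3 libraries allow is 0.1, and without DHT replicate 1 the difference was -0.22, without DHT replicate 3 it was -0.053.

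Per kilobase of exon, the members differed by 2 orders of magnitude. *Akr1c14* stood at 10702 ± 520.2 normalized counts per kb in control libraries and at 13963 ± 1057 in DHT libraries (SD, n = 3), rank 85 of the 16251 tested genes with an exonic length. It supplied between 52.8% and 56.6% of the summed level of the 7 members in every library. *Hsd17b1* came next with 4702 ± 556 in control and 6546 ± 234 in DHT libraries, rank 245. These are levels of RNA and not amounts of enzyme.

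*Hsd17b4* and *Hsd17b12* were neighbours in that order and their control values overlapped, at 1744 ± 46.8 and 1677 ± 78.4 normalized counts per kb (SD, n = 3). In DHT libraries the order was turned without overlap, with *Hsd17b4* at 1963 ± 103 and *Hsd17b12* at 2073 ± 8.30. The gap was narrow, from 2055 in the highest *Hsd17b4* library to 2065 in the lowest *Hsd17b12* library. Each length was that of all annotated exons of a gene merged, so the order of such close genes depends on that choice. *Hsd17b11* followed with 368 ± 21.3 in control and 449 ± 21.0 in DHT libraries. The 5α-reductases were the lowest, *Srd5a3* at 199 ± 6.72 and 190 ± 2.49, and *Srd5a1* at 99.2 ± 6.28 and 119 ± 5.86. All neighbours in the order other than that one pair were apart without overlap in both groups.

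**Figure D2:**
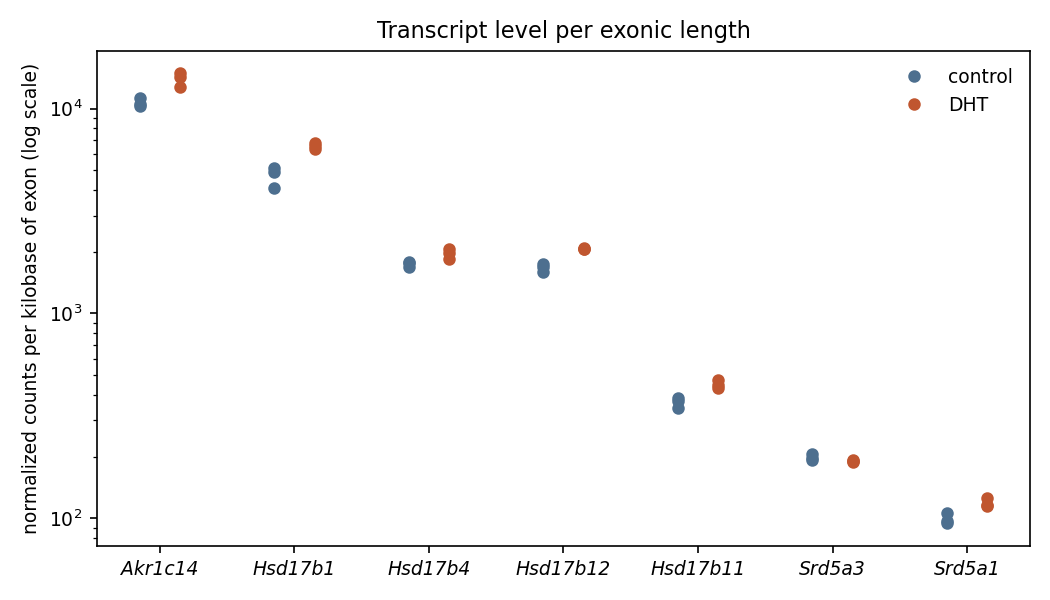
Level of each member in normalized counts per kilobase of exon on a log axis, with control and DHT libraries as points. *Akr1c14* is the highest and *Srd5a1* the lowest in all 6 libraries.

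The rest of the pathway was read from 5 lists of genes, which together had 53 genes tested, 15 of them higher and 7 lower in DHT. Without the members there were 46 genes, 10 higher and 7 lower. Over all genes tested 6.52% were higher and 4.66% lower, and the count of each list below stands beside these shares. Without DHT replicate 2, 8 listed genes were higher and 4 lower, beside 586 higher and 382 lower of all 16241 genes tested. Without DHT replicate 3, 7 listed genes were higher and 3 lower, beside 586 higher and 351 lower of all 16239. In the 17β-HSD list 5 of 7 tested genes were higher: 4 members of the group and *Hsd17b7*, an enzyme that reduces estrone and also zymosterone in cholesterol synthesis. *Hsd17b7* rose from 3843 ± 193 to 5589 ± 281 normalized counts (SD, n = 3), which is a change of 0.54 log2 units at a limma adjusted p of 0.000344, larger than that of any member. The order against *Hsd17b1* was not tested and depended on single libraries. Without DHT replicate 2 the change was 0.5065 for *Hsd17b7* and 0.5097 for *Hsd17b1*, and without control replicate 3 it was 0.5508 and 0.5521. *Hsd17b10* and *Hsd17b2* did not pass, with adjusted p of 0.355 and 0.665. *Hsd17b3*, *Hsd17b6*, *Hsd17b8*, *Hsd17b13* and *Hsd17b14* were not analysed here.

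In the list of 5α-reductases and AKR1C enzymes 1 of 6 tested genes passed, *Akr1c14*. *Akr1c18*, which inactivates progesterone, stood at 52.4 ± 23.2 normalized counts in control and at 48.8 ± 3.32 in DHT libraries (SD, n = 3), a difference of -0.014 log2 units at a limma adjusted p of 0.981. Its sign changed when DHT replicate 1 or control replicate 1 was left out. *Akr1c13*, a close relative, did not pass, with an adjusted p of 0.338.

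Among 7 tested genes of steroid conjugation and estrogen hydroxylation, 2 were higher and 1 was lower. *Cyp1b1*, which hydroxylates estradiol, rose from 6676 ± 952 to 9046 ± 247 normalized counts (SD, n = 3), which is a change of 0.45 log2 units at a limma adjusted p of 0.0122. *Papss1* and *Papss2*, which make the sulfate donor used by sulfotransferases, differed in direction. *Papss1* rose by 0.18 on the log2 scale (adjusted p = 0.0227), and *Papss2* fell by 0.24 on the log2 scale (adjusted p = 0.0211), from 13930 ± 1017 to 11784 ± 294 normalized counts. The *Cyp1b1* call was lost without DHT replicate 3, and those of both *Papss* genes without DHT replicate 2 or 3. That of *Papss1* was also lost without control replicate 1 (adjusted p = 0.0631).

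The list of steroid supply and electron donors held 6 higher and 1 lower of 11 tested genes. *Hsd3b1*, which makes progesterone and androstenedione, rose from 77463 ± 4534 to 117731 ± 5972 normalized counts (SD, n = 3), which is a change of 0.60 log2 units at a limma adjusted p of 0.000457. *Cyp11a1*, the side-chain cleavage enzyme, rose by 0.49 (adjusted p = 0.00997) and *Fdxr*, which passes electrons to it through ferredoxin, by 0.32 (adjusted p = 0.0405), both on the log2 scale. *Hsd11b2*, which inactivates glucocorticoids, rose from 589.9 ± 180.3 to 1112 ± 181 normalized counts, a change of 0.95 log2 units at an adjusted p of 0.0234. The calls of *Cyp11a1*, *Fdxr* and *Hsd11b2* were lost without DHT replicate 2 or 3, and that of *Fdxr* also without DHT replicate 1, control replicate 1 or control replicate 2.

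Cytochrome *b*5 is an electron donor and partner of steroidogenic P450 enzymes, and its forms went in opposite directions. *Cyb5a*, the microsomal form, held 14221, 12521 and 12080.2 normalized counts in control and 7494, 8004 and 7628 in DHT libraries. It fell by 0.74 on the log2 scale with a limma adjusted p of 0.00015. *Cyb5b*, the form of the outer mitochondrial membrane, rose from 10892 ± 276 to 13009 ± 169 normalized counts (SD, n = 3), which is a change of 0.26 log2 units at an adjusted p of 0.00208. *Por*, the reductase that feeds electrons to aromatase, went from 4374 ± 162 to 3976 ± 15.5 normalized counts, a difference of -0.14 log2 units at an adjusted p of 0.0524, which did not pass. *Cyb5b* was picked for this contrast after its values were seen, and *Cyb5a* and *Cyb5b* kept their calls under all 15 alternatives.

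**Figure D3:**
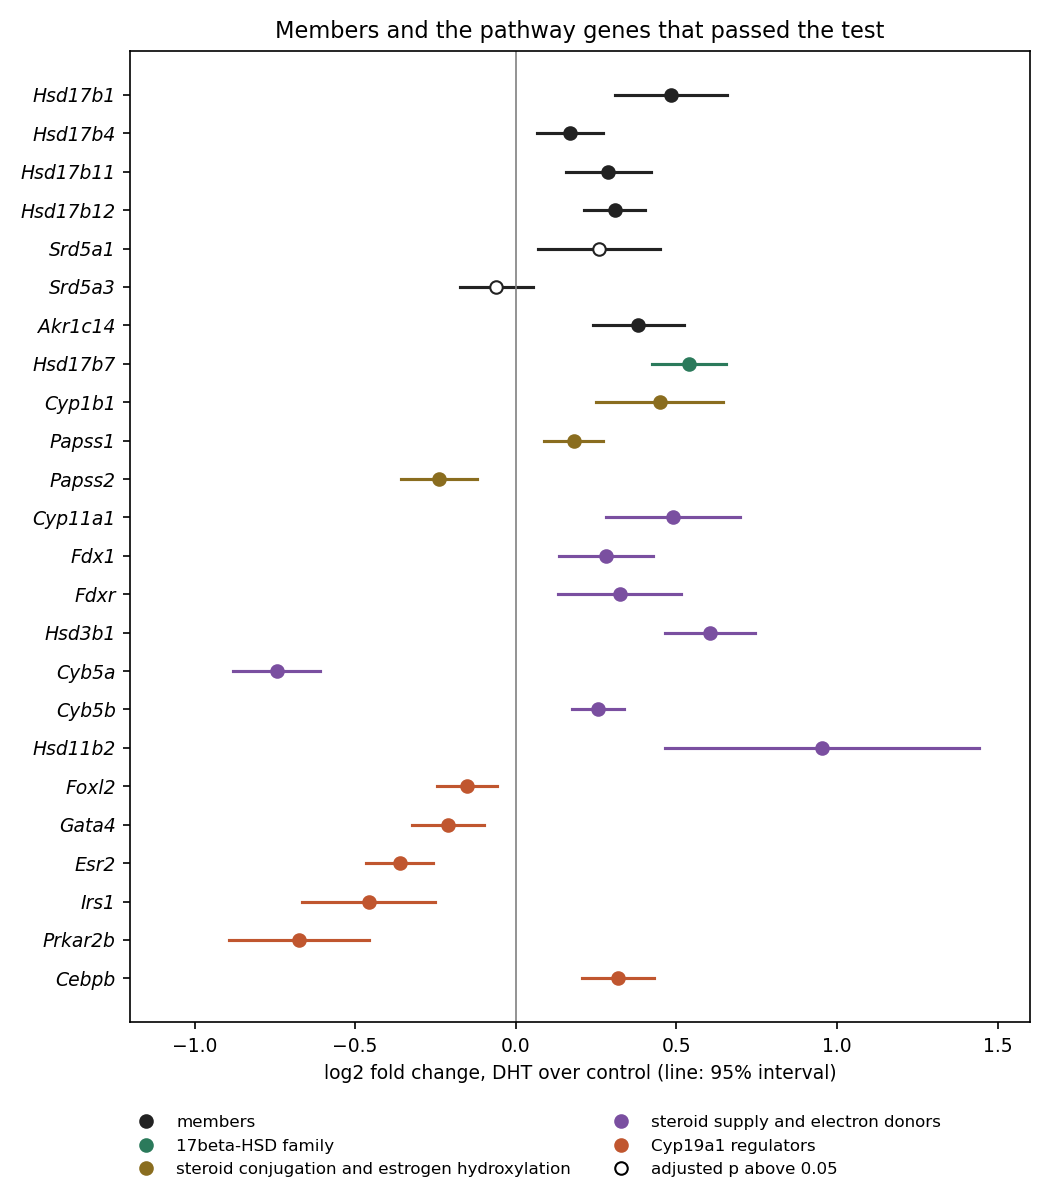
Log2 fold change, DHT minus control, with 95% intervals for the members and the genes of the 5 lists that passed the test, filled where the adjusted p was at most 0.05. Of the 7 members 5 are filled and lie right of 0, and *Cyb5a* lies farthest left among the filled genes.

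The last list held regulators of *Cyp19a1*, of which 1 of 22 tested was higher and 5 were lower, beside 6.52% and 4.66% of all genes tested. *Cebpb*, a factor of the luteinizing hormone response, rose by 0.32 on the log2 scale (limma adjusted p = 0.00379), and 20.74% of its exon bases overlap *Tmem189* on the other strand. *Prkar2b*, a regulatory subunit of protein kinase A, fell from 8091 ± 1080 to 5045 ± 434 normalized counts (SD, n = 3), which is a change of -0.68 log2 units at an adjusted p of 0.00254. *Esr2*, the estrogen receptor of GCs, fell from 5452 ± 248 to 4244 ± 172, a change of -0.36 log2 units at an adjusted p of 0.00149. *Irs1*, an adaptor of insulin and IGF1 signalling, fell by 0.46 on the log2 scale (adjusted p = 0.0136), and 30.86% of its exon bases overlap *Gm9747* on the other strand, and counting without strand would not separate such pairs. The *Irs1* call was lost without DHT replicate 3. *Gata4* and *Foxl2*, factors of GC identity, fell by 0.21 (adjusted p = 0.0265) and 0.15 (adjusted p = 0.049) on the log2 scale, and *Foxl2* missed the threshold in 7 of 15 alternatives, *Gata4* in 6, leaving out any DHT replicate or control replicate 2 among them in both.

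Receptors named for this list did not pass, apart from *Esr2*. *Fshr*, the receptor for follicle-stimulating hormone, stood at 150.1 ± 15.3 normalized counts in control and at 145 ± 12.0 in DHT libraries (SD, n = 3), with a limma adjusted p of 0.867. *Nr5a1* and *Nr5a2*, nuclear receptors that bind the aromatase promoter, had log2 differences of 0.065 and -0.052 with adjusted p of 0.552 and 0.76. The signs of *Fshr* and *Nr5a2* turned without DHT replicate 3 or control replicate 3, and that of *Nr5a1* without control replicate 3.

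For each member that passed, the other genes with the most similar course over the 6 libraries were sought among 11632 genes, by the root mean square difference of centred log2 values. *Hsd17b1* was closest to *Kcnma1* (0.029) and *Fndc4* (0.039), and *Akr1c14* to *Papln* (0.026) and *Mdfi* (0.028). *Hsd17b12* was closest to *Tmem41b* (0.019) and *Pitrm1* (0.022). *Hsd17b11* was closest to *Xbp1* (0.023) and *Fam214b* (0.025), and *Hsd17b4* to *Mdh1* (0.015) and *Ctdsp2* (0.016). Likeness over 6 libraries is a description of these libraries.

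Some markers of cell types moved with the groups too, and their part in the results was not tested. Over all genes tested 6.52% were higher and 4.66% lower in DHT by the same rule. In these bulk libraries, fewer cells of a type and less RNA per cell cannot be told apart. Of 9 GC markers, 3 were lower in DHT (*Inha*, *Kitl* and *Foxl2*) and none higher, the smallest adjusted p of a GC marker with a positive log2 fold change being 0.286 in limma (unadjusted p 0.0946). Of 6 luteal markers, 3 were higher (*Ptgfr*, *Prlr* and *Sfrp4*), and the list summed to between 32491 and 38076 normalized counts in control and between 52057 and 60118 in DHT libraries. Most of that sum was *Sfrp4*, with means of 21811 in control and 38585 in DHT libraries. *Cdkn1b* (means of 8951 and 8592), *Akr1c18* and *Lhcgr* did not pass. Of 4 smooth muscle markers, *Acta2* and *Myh11* were higher, and the list summed to between 6622 and 9985 in control and between 12043 and 14215 in DHT libraries, most of it *Acta2*. Of 5 immune markers tested, *Csf1r*, the receptor of macrophages for their growth factor, fell from 102 ± 11.4 to 64.9 ± 5.73 normalized counts (SD, n = 3; adjusted p = 0.027), a call lost without DHT replicate 2, DHT replicate 3 or control replicate 1, and 15.12% of its exon bases overlap *Hmgxb3* on the other strand. *Ptprc*, the leukocyte antigen CD45, did not pass (adjusted p = 0.215) but was higher without overlap, at 8.47 ± 2.59 in control and 14.3 ± 2.00 in DHT libraries (SD, n = 3). The immune list summed to between 504 and 592 in control and between 409 and 647 in DHT libraries. Oocyte markers summed to between 300.2 and 765 in control and between 39.3 and 560.5 in DHT libraries, and *Zp3* and *Dppa3* were at 0 in DHT replicate 2. The calls of *Inha*, *Kitl*, *Prlr* and *Sfrp4* held under all 15 alternatives, that of *Myh11* was lost without DHT replicate 2 or 3, and that of *Ptgfr* in 7 of the 15, among them the removal of any library but control replicate 3. Of 5 theca markers 0 passed in limma, while 4 had an unadjusted p under 0.05, 3 were lower without overlap and 1, *Thbd*, was higher without overlap, at 594 ± 36.2 in control and 711 ± 64.3 in DHT libraries (SD, n = 3). Over all 16292 genes tested, 4101 had an unadjusted limma p of at most 0.05, and 15.9% were higher in DHT without overlap. The share of all genes lower without overlap was not computed. The theca list summed to between 138036 and 159357 in control and between 126434 and 128942 in DHT libraries, nearly all of it *Aldh1a1*. The theca markers *Cyp17a1* and *Insl3* were not analysed here. Of 4 endothelial, 5 stroma, 4 surface epithelium and 7 oocyte markers 0 passed in limma, and 1, the stroma marker *Dcn*, had an unadjusted p under 0.05.

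**Figure D4:**
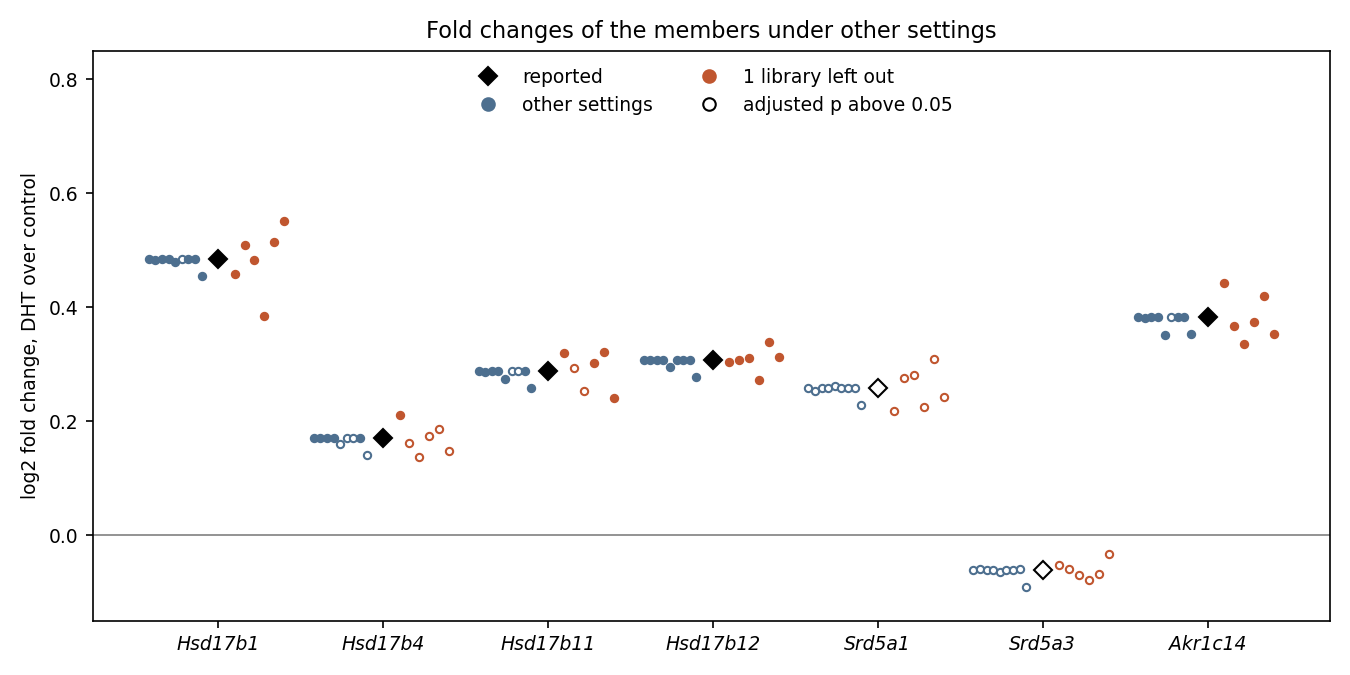
Log2 fold change of each member, DHT minus control, under the reported setting and 15 alternatives, one point per setting, filled where the adjusted p was at most 0.05. The points of *Hsd17b12* are all filled and between 0.27 and 0.34, and those of *Hsd17b4* and *Hsd17b11* are filled in part.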

How the data were processed

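RNA-seq was measured in 6 libraries of mouse GCs, 3 control and 3 DHT, grouped by the treatment that the labels give. Per the labels and the methods of the study, the authors used Trimmomatic 0.36 for trimming and STAR 2.5.2b for mapping to GRCm38, and counted reads in exons with featureCounts of Subread 1.5.2. The strand setting is not given in the sources used here. The deposited signal is a normalized count, in which the authors scaled the reads of every gene by a size factor for its library. In each library 100% of values were whole multiples of one step within 0.01. The deposited log2 fold changes and p-values hold the comparison of the authors and were not used, nor was a second table with a subset of the genes.

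Tests ran in limma 3.58.1 (R 4.3.3), with the variance modelled as a trend on intensity, on log2(value + 1) of each gene whose mean reached 10. P-values were adjusted by Benjamini-Hochberg. The fold changes are on that scale, which understates changes of low genes. Intervals are 95%. The scripts were tested on simulated data. Exonic lengths and overlaps came from GENCODE for GRCm38, and 16259 of the 16300 genes had a length. Promoter sequences came from RefSeq on GRCm38.p6. The Srd5a1 to Akr1c14 ratio was tested by an exact permutation test.

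The members and lists were chosen with earlier results of these data known. Text names all members, the 4 genes of each list with the largest change in each direction among those that passed, and genes fixed by name, of which some are not reported here, plus the 2 genes, of those whose mean reached 100, that were most like each member that passed. Alternatives were pseudocounts of 0.5 and 8, no filter, a mean of at least 50, quantile normalization, no intensity trend, the replicate number as a block, and each library left out. Trimmed-mean scaling and scaling to the total were added after the data were seen.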

Additional observations from a re-analysis of the deposited data

How the results depend on the processing

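No member changed sign under any of the 15 alternatives. Without the intensity trend, 1 member was higher instead of 5, 5 listed pathway genes were higher and 3 lower instead of 15 and 7, and 501 genes were higher and 303 lower over the table instead of 1063 and 760. Whether the replicate numbers pair the libraries was not settled. For numbers 1 to 3, the deviations of the control and the DHT library correlated at 0.0058, 0.067 and -0.24. The mean for libraries with unlike numbers was 0.028. With 3 libraries in each group, such values show no clear pairing but cannot exclude a shared pool. With the replicate block, 3 members were higher, and 633 genes higher and 357 lower. Leaving out single libraries, 3 to 5 members, 7 to 16 listed genes and 586 to 1240 genes were higher, 3 to 7 listed genes and 351 to 863 genes were lower, 140 to 285 genes passed with an absolute log2 fold change above 1, and the Srd5a1 to Akr1c14 difference ran from -0.22 to -0.053. With a mean of at least 50, 131 genes instead of 213 passed with that fold change. *Hsd17b4* missed the threshold in 9 of 15 alternatives, *Hsd17b11* in 4, and *Hsd17b1* (adjusted p = 0.0586) and *Akr1c14* (adjusted p = 0.0529) without the intensity trend alone. *Por* passed in 4. The cause of these differences was not tested. Signs turned for *Akr1c18* without DHT replicate 1 (0.041) or control replicate 1 (0.31), *Fshr* without DHT replicate 3 (0.0087) or control replicate 3 (0.038), *Nr5a2* without the same libraries (0.014 and 0.037), and *Nr5a1* without control replicate 3 (-0.0022). Over the libraries left out, *Akr1c18* ran from -0.29 to 0.31, *Fshr* from -0.11 to 0.038, *Nr5a1* from -0.0022 to 0.12 and *Nr5a2* from -0.12 to 0.037. The 2 count tests and the TMM scaling planned were not run, and trimmed-mean scaling, under which 5 members were higher, was added. The ratio of *Cyp19a1* to *Srd5a1* was not computed. Depth limits low genes most, and all members had a mean above 300.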

Other observations

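Some listed genes outside the naming rule, picked after their values were seen, did not pass the test and are given as values. *Lhcgr*, the receptor for luteinizing hormone, had 32.7, 12.1 and 63.9 normalized counts in control libraries and 68.5, 74.2 and 95.8 in DHT libraries. All DHT values were above all control values, but the control values were spread widely. The difference was 1.38 log2 units with a 95% interval of 0.29 to 2.48, and the limma adjusted p was 0.11. It was 0.77 log2 units (adjusted p = 0.18) without control replicate 2 and 1.93 log2 units (adjusted p = 0.0101) without control replicate 3. *Esr1*, the other nuclear estrogen receptor, went from 200.3 ± 23.4 to 162 ± 13.6 normalized counts (SD, n = 3), a difference of -0.30 log2 units at an adjusted p of 0.159. *Aldh1a1*, which makes retinoic acid and was the most abundant of the theca markers tested, went from 146649 ± 10722 to 124996 ± 1295 (SD, n = 3), a difference of -0.23 log2 units at an adjusted p of 0.0514, and it passed in 4 of 15 alternatives, one of them quantile normalization, under which the difference was -0.57 log2 units (adjusted p = 0.000239). *Star*, which carries cholesterol into mitochondria, overlapped between the groups, with a difference of 0.19 log2 units and an adjusted p of 0.255, or 0.068 log2 units (adjusted p = 0.569) without control replicate 2.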
